A study of Arabidopsis thaliana with 18 samples.

Results

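A set of 5 genes that act on the plant cell wall or on lipids was followed across all 18 arrays: the pectate lyase genes AT1G67750 and AT4G24780, the endoglucanase gene GH9C2, AT1G10640 for a polygalacturonase and AT1G29660 for a GDSL lipase. Each is read by 1 probe set, the group of short probes that stands for a transcript on the array, so the 5 genes are 5 of the 13350 genes named by a probe set of their own and 5 of the 22810 probe sets. They were picked by name, as wall and lipase genes that earlier results of these data had shown to be low on SA arrays 10, 11 and 12, so those low values are a description and were not tested. No label gives a harvest time or a tissue, and the genes are therefore described by array number.

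Transcript levels were measured in Arabidopsis thaliana Col-0, the reference accession, with the Affymetrix ATH1 array. Plants on 9 arrays received only 0.02% silwet, a wetting agent. Plants on the other 9 received 0.30 mM SA (salicylic acid, which plants make as a defence hormone), dissolved in that same 0.02% silwet, so silwet is shared by all groups. Title numbers name the arrays here: silwet arrays run from 1 to 9 and SA arrays from 10 to 18, and each run of 3 numbers holds 1 array of each of the replicate numbers 1, 2 and 3. Such a run is called a triplet here, giving 6 groups of 3 arrays: silwet 1 to 3, 4 to 6 and 7 to 9, and SA 10 to 12, 13 to 15 and 16 to 18. What a triplet stands for, and which silwet triplet belongs to which SA triplet, is not stated in the labels, and triplets were matched by their order in the titles. Whether the arrays of a triplet came from separate plants is not in the labels, so p-values measure the spread between these arrays, which may be technical.

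The primary wall of a growing plant cell is a network of cellulose and xyloglucan set in pectin. Pectate lyases and polygalacturonases cut the pectin backbone by different chemistry, and GH9 endoglucanases cut glucan chains of the cellulose type. GDSL lipases are a large family of esterases, some of which act on cuticle or wall polymers. Wall-loosening enzymes of these families are known to be active in expanding tissue.

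The arrays were of similar brightness, with a median signal between 29.7 and 36.3. The leaf markers RCA, LHCB4.1 and LHCB4.2, which encode rubisco activase and light-harvesting proteins, had signals of 1398 to 4152 on all arrays, and the root marker PYK10, a glucosidase of root endoplasmic reticulum bodies, had 39.6 to 261. The annotation used here names only these 3 of the 5 leaf markers listed and this 1 of the 3 root markers listed. The markers listed for seed, flower and epidermis are unnamed in it. SA array 10 stood apart in 2 controls. Its log2 ratio of 3 prime over 5 prime actin signal was 6.85, against 0.149 to 1.51 on the other 17 arrays. SA arrays 11 and 12 had ratios of 1.03 and 0.45. The same ratio for GAPDH was 3.36 on SA array 10 and at most 1.32 elsewhere. The first-triplet differences of the 5 genes, their calls between replicate numbers and the count of called family members are therefore also given without it. Values of single family genes and correlations over all 18 arrays include it.

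AT1G67750 had the deepest low among the pectin genes. Its MAS5 signal, a linear intensity, was 17.3, 20.6 and 23.2 on SA arrays 10, 11 and 12. On silwet arrays 1 to 3 it was 96.4, 99.2 and 85.9, on silwet arrays 4 to 6 it was 132, 135 and 83.7, and on silwet arrays 7 to 9 it was 94.9, 102 and 110. The 9 silwet arrays thus stayed within 83.7 to 135, and the lowest of them was 3.61 times the highest of SA arrays 10 to 12. On the later-numbered SA arrays it was 168, 223 and 174 (arrays 13 to 15) and 174, 101 and 121 (arrays 16 to 18). All 3 of SA arrays 13 to 15 lay above all 9 silwet arrays.

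AT4G24780, the brighter pectate lyase probe set, had a signal of 122, 156 and 156 on SA arrays 10 to 12. Its silwet signals were 407.1, 377 and 325.3 on arrays 1 to 3, 373, 634 and 492 on arrays 4 to 6, and 356, 461 and 598 on arrays 7 to 9. The lowest silwet array was 2.08 times the highest of SA arrays 10 to 12, the narrowest gap of the 5 genes. On SA arrays 13 to 18 it was 476, 744, 631, 402, 564 and 583, which overlaps the silwet range.

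AT1G10640, the polygalacturonase, was the dimmest of the 5 probe sets. Its signal was 10.4, 12.6 and 6.85 on SA arrays 10 to 12, which placed it between the 23.7th and the 33.9th percentile of those arrays. The 20th percentile was used as a floor, so none of the 3 values was at the floor, but no detection calls were used here and a signal this low may be near background. Silwet signals were 29.1, 33.7 and 29.7 on arrays 1 to 3, 65.4, 45.2 and 31.2 on arrays 4 to 6, and 61.6, 62.7 and 39.0 on arrays 7 to 9. On SA arrays 13 to 18 the signal was 117, 111, 81.8, 102, 60.7 and 54.4. SA arrays 13, 14, 15 and 16 lay above every silwet array.

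GH9C2, the endoglucanase, had a signal of 50.1, 88.1 and 112 on SA arrays 10 to 12. It was 332.9, 394 and 579 on silwet arrays 1 to 3, 352.7, 453 and 356.6 on arrays 4 to 6, and 318, 442 and 686 on arrays 7 to 9. Those silwet signals span a wide range, and the array with replicate number 3 was the highest in 2 of the 3 silwet triplets. On SA arrays 13 to 18 the signal was 572, 660, 642, 312, 399.5 and 671, so that SA arrays 16 to 18 were back within 1.11-fold of the silwet arrays of the same replicate number.

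AT1G29660, the GDSL lipase, had a signal of 106, 59.8 and 89.7 on SA arrays 10 to 12. Its silwet arrays were the most spread of the 5 genes, with an SD of 0.56 on the log2 scale: 418, 291.6 and 310 on arrays 1 to 3, 659, 636 and 558 on arrays 4 to 6, and 250.3, 576 and 677 on arrays 7 to 9. SA arrays 13 to 15 were close together at 679, 629 and 679, and SA arrays 16 to 18 were at 432, 618 and 825. Both sets of 3 overlapped the silwet arrays.

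**Figure D1:**
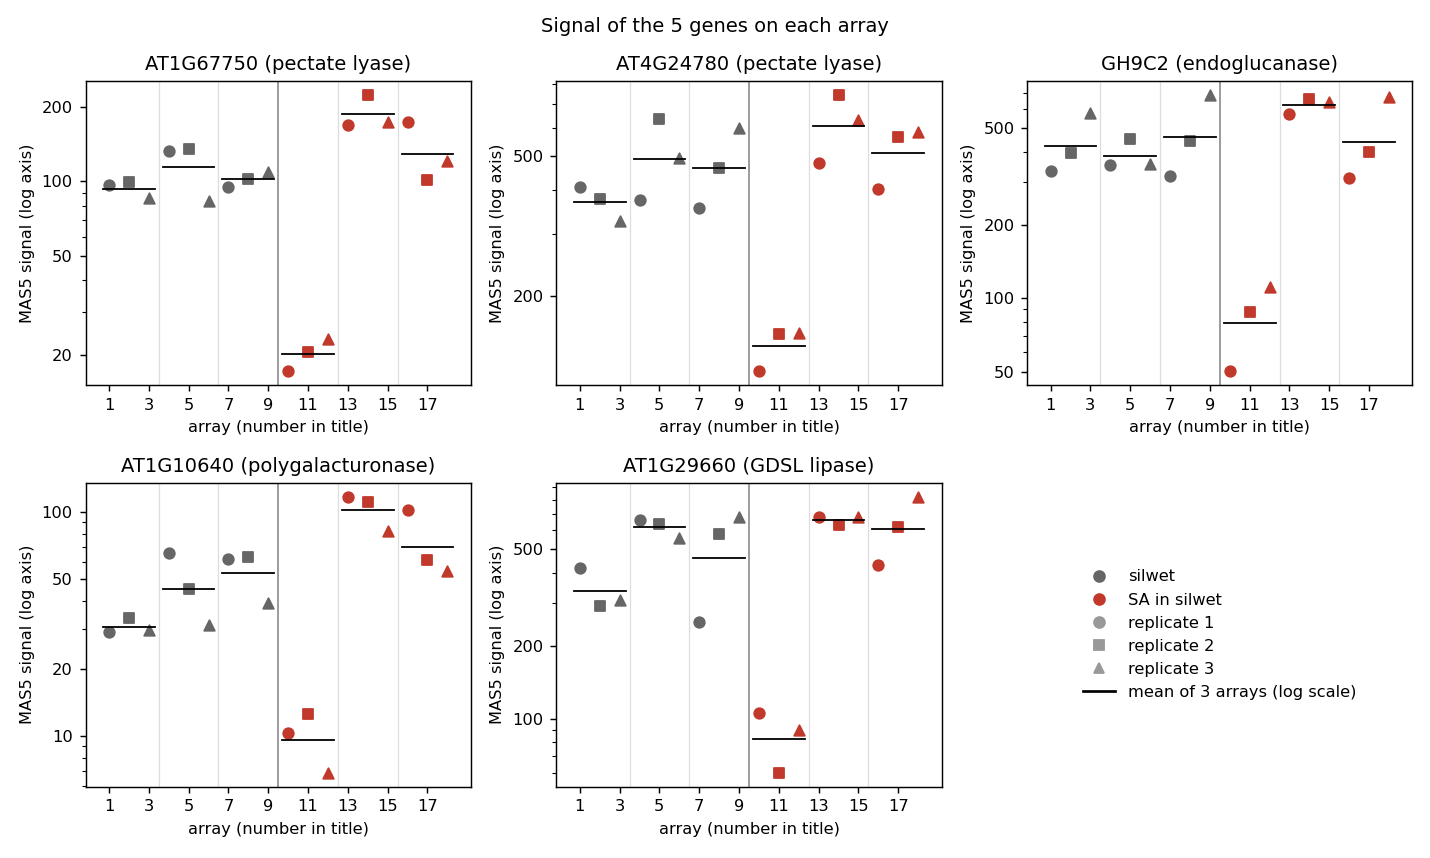
MAS5 signal (log axis) of each of the 5 genes on arrays 1 to 18, silwet in grey and SA in red, with the symbol giving the replicate number and the line the mean of 3 arrays on the log scale. SA arrays 10 to 12 lie below every other array for all 5 genes, and the mean of SA arrays 13 to 15 is the highest of the 6 group means for all 5. For AT4G24780, GH9C2 and AT1G29660 that lead over the next group is smaller than the larger SD of the 2 groups.

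The mean log2 signal was lowest in SA arrays 10 to 12 for all 5 genes, which is how they were picked, and highest in SA arrays 13 to 15 for all 5. Above SA arrays 10 to 12 the order was mostly unresolved, also at the top. SA arrays 13 to 15 led the next group by less than the larger SD for AT4G24780 (0.25), GH9C2 (0.44) and AT1G29660 (0.10). Of the 20 steps between neighbouring group means that do not involve SA arrays 10 to 12, 16 were smaller than the larger SD of the 2 groups. The 4 exceptions were AT1G67750 between SA arrays 13 to 15 and 16 to 18 (0.54) and between silwet arrays 7 to 9 and 1 to 3 (0.12), and AT1G10640 between SA arrays 13 to 15 and 16 to 18 (0.55) and between silwet arrays 4 to 6 and 1 to 3 (0.55).

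For the first triplets, SA arrays 10 to 12 minus silwet arrays 1 to 3, values below each array's 20th percentile were raised to it before log2 was taken. The log2 difference was -2.42 for GH9C2 (standard error 0.33), -2.21 for AT1G67750 (0.22), -2.02 for AT1G29660 (0.31), -1.68 for AT1G10640 (0.30) and -1.36 for AT4G24780 (0.23). In folds, the signals were 5.36, 4.63, 4.05, 3.20 and 2.56 times lower. The size depends on the scale for the dimmer probe sets: with log2(value + 16) the difference was -0.86 for AT1G10640 (1.81 times lower) and -1.60 for AT1G67750 (3.02 times lower). The difference was negative for each gene at each replicate number: it ran from -2.73 to -2.16 for GH9C2, from -2.48 to -1.89 for AT1G67750, from -2.29 to -1.79 for AT1G29660, from -2.12 to -1.42 for AT1G10640 and from -1.74 to -1.06 for AT4G24780. These are the arrays the genes were chosen on, and no test was made. Of all 13652 probe sets that passed the filter on dim signal, 12.3% were called by limma in this comparison at an adjusted p under 0.05, 6.11% lower and 6.19% higher, and all 3 SA arrays lay below all 3 silwet arrays for 17.8%. Without SA array 10 the share called was 9.68%.

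The genes were picked as low on each of SA arrays 10 to 12, so leaving out SA array 10 had to leave them low. Its part in the low values was therefore not tested. Without SA array 10 the log2 differences were -2.10 for GH9C2, -2.10 for AT1G67750, -2.20 for AT1G29660, -1.73 for AT1G10640 and -1.24 for AT4G24780. The summed signal of the 3 leaf markers was 6484 to 7102 on SA arrays 10 to 12 and 7465 to 9508 on silwet arrays 1 to 3. These sums did not overlap, nor did RCA and LHCB4.1 singly, but LHCB4.2 did (1398 to 1768 against 1600 to 2066). Limma called 0 of the 3 leaf markers in the first triplets, and their median log2 difference was -0.31. All 3 SA arrays lay below all 3 silwet arrays there for 17.8% of all tested probe sets. The root marker PYK10 overlapped, at 69.2 to 114 against 58.2 to 162. The part of leaf marker signal in the low values was not tested. In RNA from whole tissue, fewer cells of a type and less of a transcript per cell cannot be told apart.

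The second triplets compared SA arrays 13 to 15, which did not choose the genes, with silwet arrays 4 to 6. Earlier results of these data had covered these arrays too. The silwet arrays entered the choice of the genes through their lowest value, so no comparison with them is free of it. The difference was above 0 for all 5 genes, with a median of 0.70 on the log2 scale against -0.0020 over all tested probe sets. AT1G10640 differed most, by 1.18 (standard error 0.30, 95% interval 0.53 to 1.82), or 2.26-fold, and its 3 SA arrays lay above its 3 silwet arrays. AT1G67750 differed by 0.71 (standard error 0.22, interval 0.25 to 1.16) and GH9C2 by 0.70 (standard error 0.33, interval 0.0036 to 1.39), again without overlap. AT4G24780 differed by 0.31 (interval -0.17 to 0.80) and AT1G29660 by 0.10 (interval -0.56 to 0.76), and for these the groups overlapped. At matched replicate numbers SA was higher in 3 of 3 for AT1G67750, GH9C2, AT1G10640 and AT4G24780 (0.35, 0.23 and 0.36 for the last), and in 2 of 3 for AT1G29660, beside 18.5% of all tested probe sets with SA higher in 3 of 3.

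None of the 5 passed limma's test over all probe sets without a replicate term. The adjusted p was 0.167 for AT1G10640, 0.339 for AT1G67750 and 0.866 for GH9C2, and 3 of the 5 had an unadjusted p under 0.05, beside 5.73% of all tested probe sets. In that fit 0.3% of probe sets were called, all 41 of them lower with SA. The replicate numbers pair the SA and silwet arrays of the second triplets by the correlation of their deviations, and with the replicate number as a block AT1G10640 rose by the same 1.18 (standard error 0.21) with an adjusted p of 0.0214. It was higher at 3 of 3 replicate numbers, by 0.84, 1.30 and 1.39. With the block 0.439% of probe sets were called, 0.425% lower and 0.0146% higher, so that AT1G10640 was 1 of the 2 probe sets called higher; the other is unnamed here. The adjusted p of the other 4 genes with the block was 0.255 or above. All 3 SA arrays lay above all 3 silwet arrays for 3 of the 5 genes and for 5.06% of all tested probe sets, and below them for 0 of the 5 and 6.89% of all. The genes had been chosen as low in the first triplets. Of the 2424 tested probe sets with all 3 SA arrays lower there, 304 had all 3 higher in the second.

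In the third triplets, SA arrays 16 to 18 against silwet arrays 7 to 9, no member was called, and 0 of 5 had an unadjusted p under 0.05 in limma, beside 4.64% of all tested probe sets. The log2 differences were 0.39 for AT1G29660 (interval -0.27 to 1.05), 0.38 for AT1G10640 (interval -0.26 to 1.03), 0.33 for AT1G67750 (interval -0.12 to 0.79), 0.14 for AT4G24780 (interval -0.34 to 0.63) and -0.07 for GH9C2 (interval -0.76 to 0.62). All 5 pairs of groups overlapped, where all 3 SA arrays lay above all 3 silwet arrays for 4.38% of tested probe sets and below them for 6.77%. The intervals for AT1G67750, AT4G24780 and AT1G29660 include those genes' second-triplet differences, and the intervals for AT1G10640 and GH9C2 end below theirs. These intervals come from the fit without a replicate term. They include spread shared by SA and silwet arrays of the same replicate number. At matched replicate numbers GH9C2 differed by -0.03, -0.15 and -0.03, while AT1G67750 ran from -0.01 to 0.87. Over all probe sets 0.0146% were called. The difference between the SA effects of the second and of the third triplets was tested directly, and 0 of the 5 genes and 0% of all probe sets passed in limma, with 0 of the 5 and 226 of all probe sets at an unadjusted p under 0.05. It was largest for AT1G10640 at -0.79 (standard error 0.43) and GH9C2 at -0.77 (standard error 0.46). These standard errors leave out the pairing by replicate number. With the replicate number as a block, 0 of all probe sets passed as well.

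**Figure D2:**
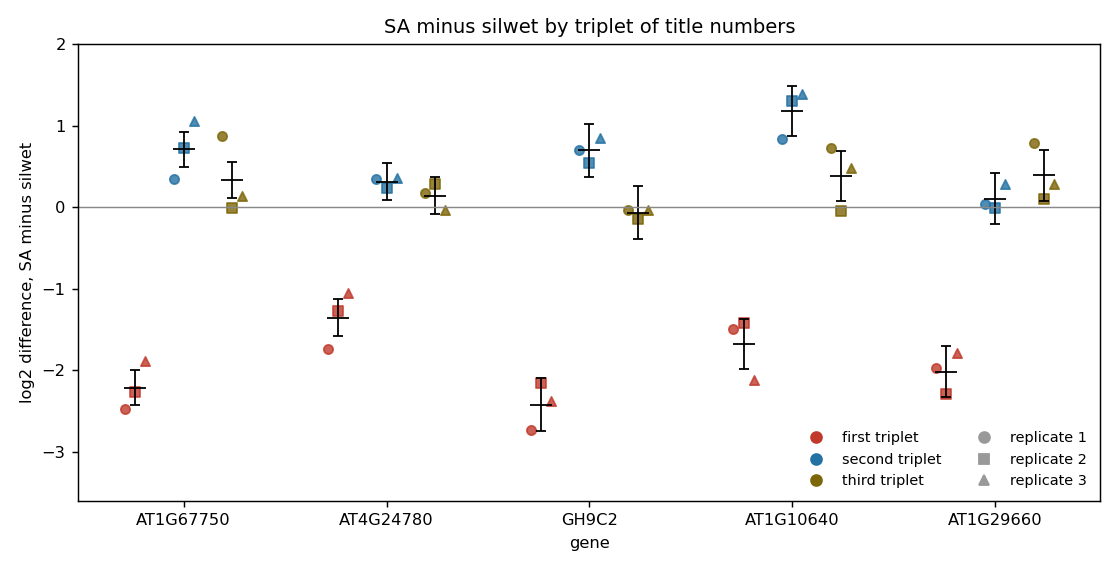
Log2 difference of SA minus silwet for the 5 genes in each triplet. Coloured symbols are the differences at replicate numbers 1, 2 and 3, and black bars the limma difference with its standard error. All 15 first-triplet symbols lie below -1, and AT1G10640 in the second triplet lies between 0.84 and 1.39.

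Among silwet arrays alone, AT1G29660 was 0.88 higher on arrays 4 to 6 than on arrays 1 to 3 (standard error 0.31, interval 0.22 to 1.54), at 558 to 659 against 291.6 to 418. It did not pass over all probe sets (limma, adjusted p = 0.347), nor did any of the other 4 genes, whose differences were 0.55 for AT1G10640, 0.41 for AT4G24780, 0.29 for AT1G67750 and -0.14 for GH9C2. Limma called 0.315% of all probe sets in this comparison, 0.00732% higher and 0.308% lower, and 1 of the 5 genes had an unadjusted p under 0.05, beside 9.4% of all tested probe sets. Between silwet arrays 4 to 6 and 7 to 9 the differences ran from -0.42 for AT1G29660 to 0.25 for GH9C2. Between SA arrays 13 to 15 and 16 to 18 all 5 genes were lower on the latter, from -0.13 for AT1G29660 to -0.55 for AT1G10640. Limma called 0 of the 5 genes and 0% of probe sets in either comparison, with 0 and 1 of the 5, and 668 and 616 of all probe sets, at an unadjusted p under 0.05.

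GH9C2 and AT1G10640 differed between the replicate numbers, in opposite directions. Against replicate 1, GH9C2 was higher by 0.41 on replicate 2 arrays and by 0.72 on replicate 3 arrays (standard error 0.15; limma F test, adjusted p = 0.0215), and its replicate 3 array was above its replicate 1 array in 6 of 6 groups. AT1G10640 differed from replicate 1 by -0.14 in replicate 2 and by -0.62 in replicate 3 (standard error 0.15, adjusted p = 0.0379), with replicate 3 below replicate 1 in 5 of 6 groups. AT4G24780 was 0.42 and 0.35 higher (adjusted p = 0.0660), and AT1G67750 and AT1G29660 had adjusted p of 0.791 and 0.676. The 2 genes called stand beside 8.49% of all probe sets.

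Both calls held without SA array 10 (adjusted p = 0.0381 for GH9C2 and 0.0357 for AT1G10640). Neither held without SA arrays 10 to 12, where the adjusted p was 0.0611 for GH9C2 (0.64 higher in replicate 3 than in replicate 1) and 0.0635 for AT1G10640 (-0.62). GH9C2 also missed the threshold without silwet array 7 (0.0564) or SA array 16 (0.0621). AT1G10640 missed it without any one of silwet arrays 2 and 4 to 9 or of SA arrays 12 to 16 and 18, with adjusted p between 0.0536 and 0.0915.

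**Figure D3:**
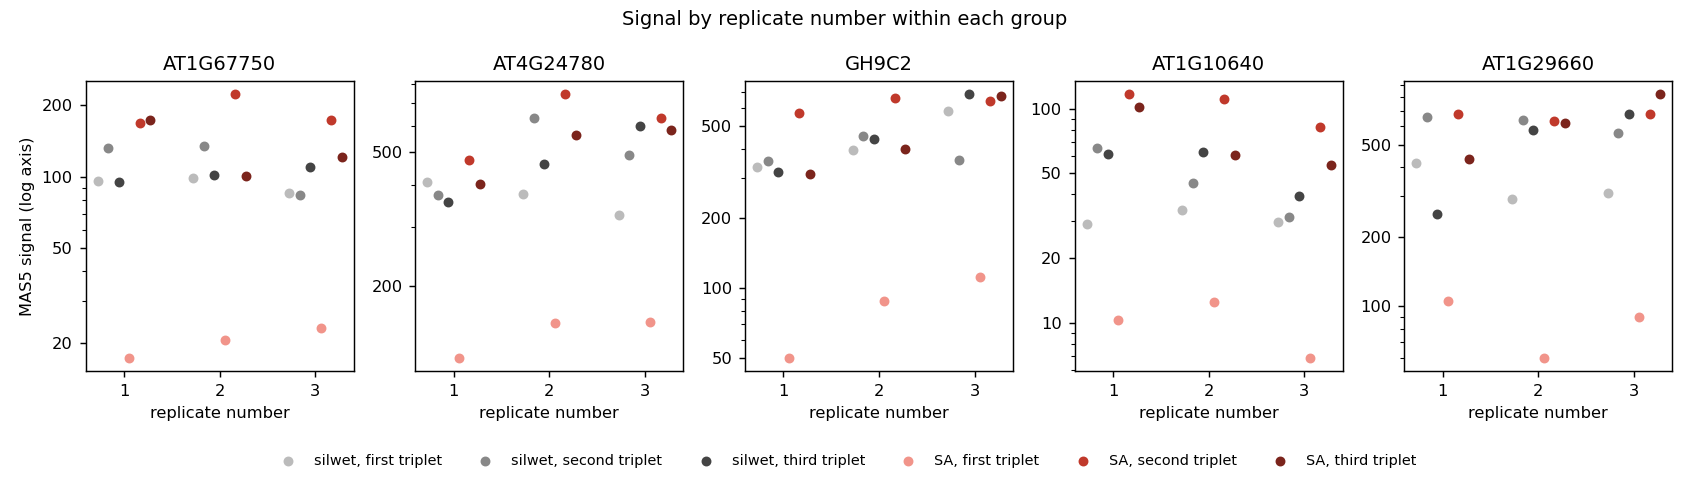
MAS5 signal (log axis) of the 5 genes by replicate number, with 1 point for each of the 6 groups. GH9C2 is higher in replicate 3 than in replicate 1 in all 6 groups, and AT1G10640 is lower in 5 of 6.

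The 5 genes varied together mostly through SA arrays 10 to 12. Over all 18 arrays the Pearson correlation between 2 of them ran from 0.78 to 0.93 over the 10 pairs. Without SA arrays 10 to 12 it ran from 0.18 to 0.84 with a median of 0.49, highest between AT1G67750 and AT1G10640 and lowest between GH9C2 and AT1G10640. Over the 9 silwet arrays the highest was 0.74, between AT4G24780 and AT1G29660, and the lowest -0.22, between GH9C2 and AT1G10640. The arrays share their scaling and replicate numbers, so these correlations are descriptions.

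The genes most like each member were taken by Pearson correlation over the 18 arrays among named, tested genes. These arrays include SA arrays 10 to 12, on which the members were picked as low, so other genes low there rank high. AT2G05790 was closest to AT1G67750 (0.97) and to the mean profile of the 5 genes (0.965). AT3G06770, a polygalacturonase gene, and AT5G48900, a pectate lyase gene, were the first and the third closest to AT4G24780 (0.96 and 0.95), with AT4G27720 between them. AT2G22890 was closest to GH9C2 (0.95), AT1G55360 to AT1G10640 (0.95) and AT2G27130 to AT1G29660 (0.95). Over the 15 arrays without SA arrays 10 to 12 the closest were AT1G26180 to AT1G67750 (0.82), AT3G32930 to AT4G24780 (0.89), AT2G24290 to AT1G10640 (0.86) and AT1G61900 to AT1G29660 (0.93). Neither AT3G06770 nor AT5G48900 was among the 3 closest to AT4G24780 over these 15 arrays. The expansin gene EXPA15 was then the second closest to GH9C2 (0.85), after DAL1 (0.86), and the expansin gene EXPA8 the second closest to AT1G29660 (0.86). For the mean of the 5 genes over these 15 arrays, the GDSL lipase gene AT4G18970 was closest (0.87).

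Other genes of the same families were also low on SA arrays 10 to 12. Of 62 tested probe sets of pectate lyase, polygalacturonase, GH9 endoglucanase, GDSL lipase, expansin and XTH (xyloglucan endotransglucosylase) genes, without the 5 genes themselves, 18 were called lower against silwet arrays 1 to 3 and 0 higher. That is 29.0% called lower, beside 6.11% of all tested probe sets. Their median log2 difference was -0.65, against -0.05 over all probe sets. Without SA array 10 the count was 16, beside 5.04% of all probe sets called lower, and with the replicate number as a block it was 28, beside 9.9%. Without silwet array 3 or SA array 11 it was 12.

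The pectate lyase list had 10 other tested members, of which limma called 3 lower in the first triplets. The median log2 difference of the 10 was -0.77. AT3G09540 had a signal of 71.3, 61.0 and 56.3 on SA arrays 10 to 12 and of 129, 131 and 159 on silwet arrays 1 to 3, a log2 difference of -1.15 (standard error 0.16, adjusted p = 0.000460). AT5G48900 went from 147, 186 and 143 to 66.7, 49.5 and 45.7, a difference of -1.56 (standard error 0.29, adjusted p = 0.00274). AT1G04680 differed by -0.77 (adjusted p = 0.0409). For all 3 genes every SA array lay below every silwet array, as for 17.8% of all tested probe sets. These genes were named for their small p in this same comparison, so the separation adds nothing to their calls. AT5G63180 differed by -0.94 and did not pass (adjusted p = 0.0555).

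Of 12 other polygalacturonase probe sets, limma called 3 lower in the first triplets. The median log2 difference of the 12 was -0.46. AT1G60590 was at 21.5, 12.0 and 21.9 on SA arrays 10 to 12 and at 46.9, 66.8 and 52.2 on silwet arrays 1 to 3, a log2 difference of -1.62 (standard error 0.26, adjusted p = 0.00124). On SA arrays 13 to 15 it was at 81.9, 118 and 75.6 against 38.9, 50.4 and 36.4 on silwet arrays 4 to 6. That second-triplet difference of 1.12 resembled the 1.18 of AT1G10640 in size, and limma did not call it (adjusted p = 0.107). AT3G06770 and AT3G16850 fell by 1.21 and 0.61 on the log2 scale in the first triplets (adjusted p = 0.0106 and 0.0305), and AT4G23820 differed by -0.55 (adjusted p = 0.123).

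Of 3 other GH9 probe sets, limma called GH9B8 and GH9B7 lower in the first triplets. GH9B8 had a log2 difference of -0.83 (adjusted p = 0.0155) and GH9B7 of -0.46 (adjusted p = 0.0263), smaller than the -2.42 of GH9C2. GH9B13 differed by -1.001 and did not pass (adjusted p = 0.129), and its silwet arrays 1 to 3 spread from 60.7 to 139.

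The GDSL lipase list held 25 other tested members, and limma called 9 of them lower in the first triplets. The median log2 difference of the 25 was -0.78. AT4G01130 was at 50.4, 29.8 and 33.4 on SA arrays 10 to 12 and at 112, 121 and 93.7 on silwet arrays 1 to 3, a difference of -1.55 (standard error 0.20, adjusted p = 0.000274). AT3G05180 fell by 1.38, AT3G16370 by 1.04 and AT1G75900 by 0.89 on the log2 scale, with adjusted p of 0.00165, 0.00397 and 0.00432. AT1G29670, the next protein-coding gene along the chromosome from AT1G29660 and chosen after its values were seen, fell by 0.86 (adjusted p = 0.00763).

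Among 9 expansin probe sets, which stand for proteins that loosen walls without cutting them, limma called only EXPA4 lower, by 0.84 (adjusted p = 0.0316). The median log2 difference of the 9 was -0.65. EXPA15, EXPB3 and EXPA9 differed by -0.64, -0.65 and -0.98 and did not pass. EXPA8, named among the closest profiles above, had a larger difference of -1.40 and did not pass either (adjusted p = 0.242). None of the 3 tested XTH probe sets, for enzymes that cut and rejoin xyloglucan, was called in limma: XTH32 differed by -0.52 (unadjusted p = 0.0489), EXGT-A3 by -0.18 and XTH16 by -0.08. The lists of cellulose synthase genes and of cuticle and lipid transfer genes had 0 named probe sets.

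In the second and in the third triplets 0 of the same 62 probe sets were called in either direction. In limma 4 and 2 of them had an unadjusted p under 0.05, all higher with SA. Over all tested probe sets the share in either direction was 5.73% and 4.64%, so without regard to direction these counts are near the background. The share of all probe sets higher at that threshold was not counted. The median log2 differences were 0.15 and 0.10, beside -0.0020 and -0.02 over all probe sets, and 45 and 41 of the 62 were above 0.

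**Figure D4:**
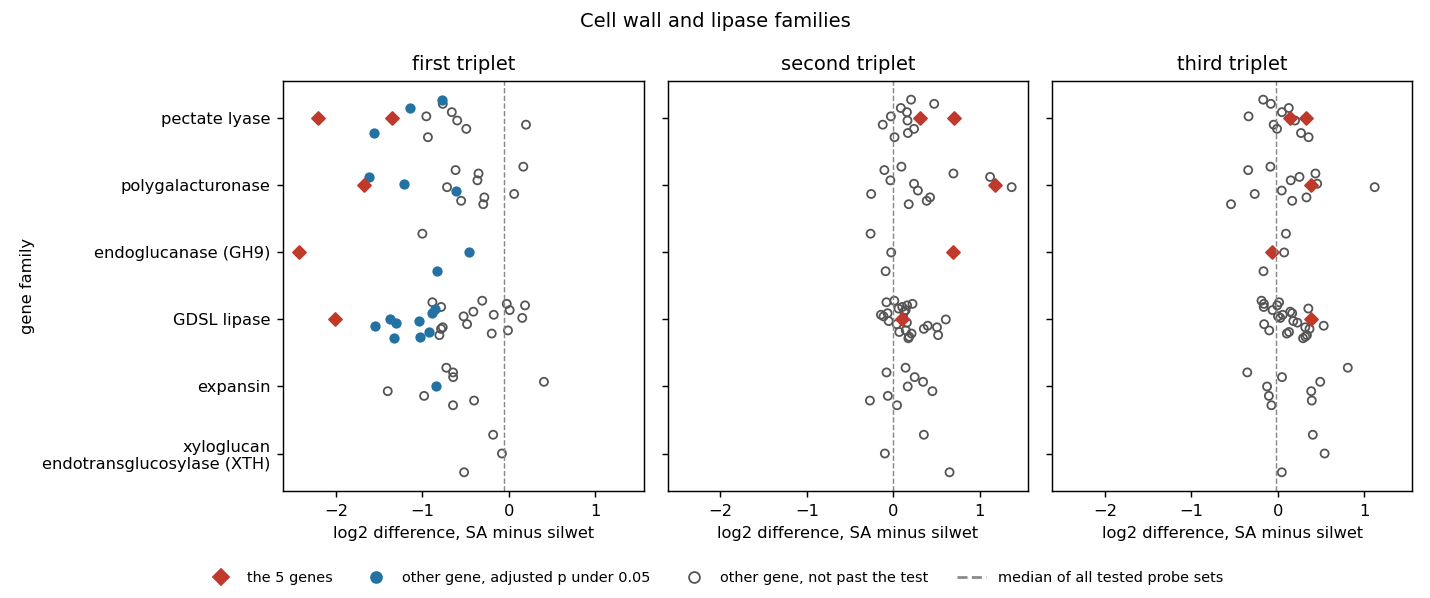
Log2 difference of SA minus silwet for the 5 genes (red diamonds) and the other tested probe sets of 6 families (circles, filled where limma's adjusted p was under 0.05), by triplet. The dashed line is the median of all tested probe sets. In the first triplets 18 of the 62 circles are filled, all to the left of the line, and in the second and in the third triplets 0 are.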

How the data were processed

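The deposited values are intensities: MAS5 signals on a linear scale, 1 for each probe set, per the submitters' processing notes. The MAS5 version and the array's genome build are not given in the sources used here, and no detection calls were used. Before log2 of the deposited values was computed, any value under the 20th percentile of its array was set to that percentile, which understates changes of dim transcripts. Control probe sets (64) and those with a mean under the 40th percentile were left out, leaving 13652. All 5 genes passed.

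A limma 3.58.1 fit in R 4.3.3 (lmFit, eBayes with trend and robust) gave each of the 6 groups a mean. Standard errors and intervals of group differences come from this fit, without a replicate term, unless the block is named. Replicate numbers were compared by an F test with the groups as terms. Benjamini-Hochberg adjustment ran over all tested probe sets, with a threshold of 0.05. Summaries were made in Python 3.11.15. The fit without a replicate term was tested on simulated data with independent noise between arrays. Those data held no replicate effect, so they do not check the fit under the pairing described below.

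Gene names came from the platform annotation and were updated with NCBI's table for TAIR10.1. A single gene is named for 13513 probe sets, several for 503, and none here for 8794. The table held 13436 of the 13513.

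The genes, families and tests were chosen with earlier results of these data known. The text names the 5 genes, up to 4 others per family by smallest p in the first triplets, the closest profiles, and AT1G29670 and EXPA8 outside that rule, after their values were seen.

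Same-numbered arrays correlated in their deviations from group means at 0.26 to 0.43, 0.40 to 0.55 and 0.44 to 0.73 between SA and silwet in the first, the second and the third triplets, and at 0.26 to 0.48 and 0.10 to 0.27 between successive silwet triplets, so the numbers pair these arrays. The pairing comes from these correlations, since no label states it. Between SA arrays 13 to 15 and 16 to 18 they ran from -0.16 to 0.32, and there the numbers do not pair them. The number of arrays limits the precision.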

Additional observations from a re-analysis of the deposited data

Results flagged for a closer look

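For 3 of the 5 genes every SA array was below its silwet arrays in the first triplets and above them in the second, as for 2.23% of all tested probe sets. The first part of this pattern is how the genes were chosen, so the share over all probe sets is not a like base. All 3 SA arrays lay below in the first triplets for 2424 tested probe sets. Of these, 304 had all 3 SA arrays above in the second. AT1G67750 had a log2 difference of -2.21 in the first triplets and 0.71 in the second. GH9C2 had -2.42 and 0.70, and AT1G10640 had -1.68 and 1.18. The first-triplet values chose the genes, and the difference between the triplets was not tested.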

How the results depend on the processing

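Alternatives changed 1 step each. The scale had no floor or became log2(value + 16), arrays were quantile-normalized or median-centred, and the filter was dropped or moved to the 60th percentile (where AT1G10640 is not tested). The fit took array weights, a replicate block or eBayes with neither trend nor robust, or left out each array, SA array 10 included. Leaving out SA arrays 10 to 12 together was chosen after seeing the data. The median first-triplet difference of the 5 genes, -2.02, was -1.60 with log2(value + 16) and between -2.12 and -1.86 with 1 array left out. With the replicate block 1 of the 5 genes was called in the second triplets, AT1G10640, and the block changed no other call on the 5 genes. The block was not run without SA arrays 10 to 12. The 2 genes called between replicate numbers became 1 with no filter, 1 with the filter at the 60th percentile, 0 without SA arrays 10 to 12, and 0 to 3 with 1 array left out; AT4G24780 was called with array weights (adjusted p = 0.0187) and without silwet array 1 (0.0177) or 3 (0.0496). AT1G10640 was not called with no filter (0.0586). The cause was not tested. Of 834 values for the 30 tested differences, 1 was called, and 14 had the other sign with none of them called. Over all probe sets the 1679 first-triplet calls became 931 without silwet array 3 and 2519 with the block. The 41 second-triplet calls became 15 without SA array 15 and 69 with array weights, and the 2 third-triplet calls became 41 with array weights, 7 with the block and 0 to 4 with 1 array left out. The 43 calls between the first silwet triplets became 17 without silwet array 5 and 112 with the block, and the 1159 between replicate numbers became 473 without silwet array 4 and 2006 with array weights. The 0 calls between silwet arrays 4 to 6 and 7 to 9 became 6 with the block, and the 0 between SA arrays 13 to 15 and 16 to 18 became 1 without SA array 15. The 18 other family members called lower in the first triplets became 28 with the block. No detection calls were used, so what lies near background cannot be said.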
